A study of Mus musculus with 12 samples.

Results

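Gene expression of primary cardiomyocytes was compared directly between stimulation with murine Oncostatin M (mOSM) and with murine Leukemia inhibitory factor (mLIF), with 3 RNA-sequencing libraries per cytokine. The cells came from the hearts of adult male C57/Bl6 mice, 12 weeks of age according to the labels, and were kept in culture under normoxia for 24 h with the recombinant protein, or with an equal volume of sterile PBS. The labels state a concentration of 25 ng/mL, whereas the methods of the study state a lower one. A further cytokine arm with a human-like Oncostatin M (hlOSM) was sequenced in the same way and entered the fit for its estimate of the spread, so that 12 libraries in 4 conditions were used. Members of the comparison were the 13184 of 22915 genes in the deposited table whose normalized count reached 10 in 3 or more of the 12 libraries. The remaining 9731 genes were not tested. At the edge of this rule, 231 genes entered with a value of exactly 10 as the lowest of their 3 highest libraries, while 269 genes had a 9 there and did not enter. A gene under 10 in every PBS and mLIF library could enter only through libraries with mOSM or hlOSM, where it is high. This holds for instance for Cyp26b1, Aldh1a3, Slc16a3 and Il13ra2, given below. Ccl8, also given below, likewise needed libraries with mOSM or hlOSM to enter. PBS libraries served to say which of both cytokines had moved a gene.

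Both cytokines belong to the IL-6 family and signal through complexes that contain the shared receptor subunit gp130, which is encoded by Il6st. In mice, LIF pairs gp130 with the LIF receptor (Lifr), whereas OSM pairs it with the OSM receptor (Osmr) and does not bind the LIF receptor. Janus kinases attached to these chains phosphorylate STAT transcription factors, mainly STAT3, and also feed the ERK pathway. Socs3, itself a STAT3 target, closes the loop by blocking gp130-bound Janus kinases. In the heart, OSM is known for driving dedifferentiation of cardiomyocytes, with loss of sarcomeres and release of cytokines, and LIF for protecting them and for hypertrophy. The question of the comparison was thus what signaling through Osmr does to the transcriptome of cardiomyocytes that signaling through Lifr does not, or does less.

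Values are normalized counts that the authors rounded to whole numbers. They are not divided by gene length and are not read counts, so that the sequencing depth is unknown. They added up to between 2760795 and 2911891 in the 6 libraries compared. limma was fitted to log2(value + 1) of the 12 libraries together, and a gene counted as differentially expressed (DEG) where its two-sided p, adjusted after Benjamini and Hochberg over all 13184 genes, was under 0.05. Fold changes are on this log2(value + 1) scale, which understates the change of low genes. Where values of a gene are set against each other without further words, the 3 libraries of mOSM come first and those of mLIF second. The labels do not say whether libraries came from separate cultures or animals, so the p-values measure the spread between these libraries, which may be technical. For a single gene, 3 libraries against 3 allow no exact two-sided p below 0.1. The deposited values also hold almost no difference between replicate numbers that varies from gene to gene. Averaged over the 4 conditions, the deviation of a replicate number varied between genes with an SD of at most 0.00113 on the log2 scale, against 0.062 to 0.105 for single libraries. The libraries of different conditions are thus not fully independent of each other. A fit without a term for the replicate number does not account for this, so that its p-values may be too small. The p-values given here are from such a fit unless a block is named. When the replicate number was added to the model as a block, limma called 619 higher and 542 lower genes, against 797 and 760 in the fit without it that is reported here. Of the 272 genes named, 12 lost their call with the block, among them Il6st (limma adjusted p = 0.0803), Tnnt2 (0.059) and Tcf21 (0.0733).

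With mOSM, 797 genes were higher than with mLIF (6.05% of the genes tested) and 760 were lower (5.76%), which makes 1557 DEG (11.8%). Of these, 784 of the higher and 742 of the lower genes had no overlap between the 3 mOSM and the 3 mLIF libraries. Over all tested genes, such a separation was seen for 12.9% in the higher and 14.1% in the lower direction. The median log2 fold change among DEG was 0.52 in the higher and −0.52 in the lower direction, against −0.01 over all genes. A change of at least 2-fold was reached by 189 higher and 138 lower genes, of at least 4-fold by 47 and 26, and of at least 8-fold by 19 and 3. Most DEG thus differed by well under 2-fold, and the large differences were mainly genes higher with mOSM. In every fit that left out 1 of the 6 libraries compared, 450 higher and 372 lower genes were past the threshold.

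The culture was checked against markers of the cell types it could hold. All 10 cardiomyocyte markers were measured at high levels, led by Ttn, and the summed level of the list was 43393 to 45334 in mLIF and 35361 to 39641 in mOSM. Without Ttn the remaining 9 markers summed to 14478 to 16147 in mLIF and 13228 to 15565 in mOSM, so that these ranges overlapped. Endothelial markers summed to 1458 to 1541 in mLIF and 1830 to 2180 in mOSM, with 6 of 10 past the threshold in the higher direction. Fibroblast markers ranged from 2157 to 2292 in mLIF and from 2496 to 2921 in mOSM, with 2 of 10 higher (Col3a1 and Dcn) and 4 lower (Col1a2, Pdgfra, Tcf21 and Dpt). Tcf21 missed the threshold without mLIF replicate 3 (limma adjusted p = 0.0906) or mOSM replicate 1 (0.0959). Among markers of smooth muscle cells and pericytes, which summed to 1034 to 1088 in mLIF and 816 to 877 in mOSM, 1 of 9 tested genes was higher and 5 were lower. Macrophage markers lay between 336 and 374 in mLIF and between 385 and 428 in mOSM, with Cd68 higher, a call that was lost without mLIF replicate 2 (limma adjusted p = 0.0839) or mOSM replicate 2 (0.0671). Markers of adipocytes summed to 98 to 114 in PBS, 79 to 96 in mLIF and 61 to 72 in mOSM, and those of neutrophils, lymphocytes, mesothelial and Schwann cells stayed at or under 93 in every library of PBS, mLIF and mOSM. In such bulk samples, fewer cells of a type and less RNA per cell cannot be told apart. The part of these other cells in the differences given here was not tested.

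The 10 largest rises among DEG with a mean of at least 50 and without overlap were led by secreted and cell surface proteins. Il33, an alarmin cytokine of the IL-1 family (ENSMUSG00000024810, chromosome 19, 29925114 to 29960718 on mm10), had normalized counts of 198, 183 and 251 with mOSM and of 7, 18 and 18 with mLIF. Every mOSM library was thus far above every mLIF library, and PBS had 11, 5 and 2. The log2 fold change of mOSM over mLIF was 3.88 (SE 0.34, limma adjusted p = 3.51e-08), or 14.7-fold. Serpinb2, which encodes the plasminogen activator inhibitor 2, reached 141, 231 and 174 with mOSM against 14, 11 and 16 with mLIF, a log2 fold change of 3.63. It shares 12.4% of its exonic sequence with another gene of its strand. Itgb8, an integrin chain that activates latent TGF-beta, varied little between its mOSM libraries. Its counts were 272, 274 and 284 with mOSM, 32, 27 and 30 with mLIF and 26, 30 and 23 with PBS, a log2 fold change of 3.18 (SE 0.12, limma adjusted p = 2.42e-14). The mLIF and PBS libraries of Itgb8 overlapped.

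Matrix and joint-surface proteins came next. Abi3bp, an extracellular matrix protein, had 292, 313 and 328 with mOSM and 35, 35 and 28 with mLIF (log2 fold change 3.22). Prg4, the lubricant proteoglycan lubricin, went from 21, 25 and 25 with mLIF to 248, 180 and 209 with mOSM (3.10). Adamts4, an aggrecan-cleaving protease, had 184, 205 and 233 against 30, 25 and 23 (2.95). In none of these did the libraries of both cytokines overlap. Il6, the name-giving cytokine of the family, was higher by 2.86 and Cpxm1, a carboxypeptidase-like protein, by 2.63 on the log2 scale. Kbtbd11, a Kelch protein which shares 24.8% of its exonic sequence with a gene of the opposite strand, was higher by 2.36. Its values rose in steps, from 11, 13 and 4 with PBS to 37, 42 and 56 with mLIF and 219, 195 and 289 with mOSM. Sod3, the extracellular superoxide dismutase, closed the list with 93, 108 and 89 with mOSM and 23, 20 and 28 with mLIF (1.99).

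**Figure D1:**
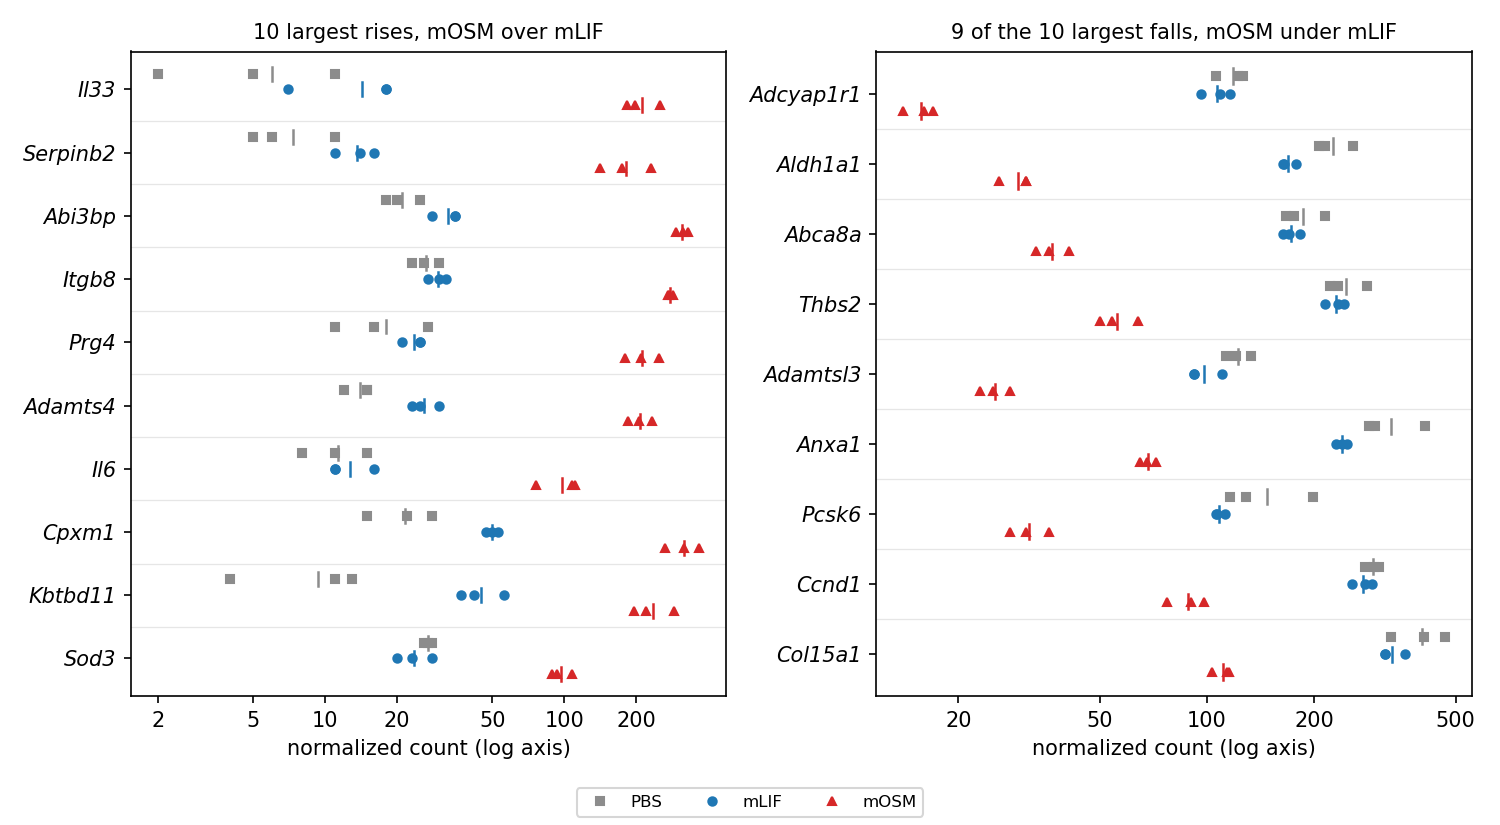
Normalized counts (log axis) in the single libraries of PBS, mLIF and mOSM for the 10 largest rises (left) and 9 of the 10 largest falls (right) of mOSM against mLIF, with a vertical line at each mean of 3 libraries. The 3 mOSM libraries lie apart from the 3 mLIF libraries in all of these genes. Among the rises, mLIF was called above PBS in 6 genes (Il33, Serpinb2, Abi3bp, Adamts4, Cpxm1 and Kbtbd11), and among the falls shown, mLIF was called below PBS in Aldh1a1 and Anxa1.

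Among DEG with a mean of at least 50 and without overlap, the largest fall was that of Adcyap1r1, the receptor of the neuropeptide PACAP (ENSMUSG00000029778, chromosome 6, 55451978 to 55501451). It had 14, 16 and 17 normalized counts with mOSM against 116, 96 and 109 with mLIF and 106, 126 and 122 with PBS. All mOSM libraries were far below the others, with a log2 fold change of −2.70 (SE 0.14, limma adjusted p = 5.71e-12), which is 6.48-fold lower. Aldh1a1, an enzyme that makes retinoic acid, fell to 31, 26 and 31 with mOSM from 165, 163 and 178 with mLIF (−2.49). Abca8a, a lipid transporter, had 41, 33 and 36 against 163, 182 and 170 (−2.20), and Thbs2, the matricellular protein thrombospondin 2, had 64, 54 and 50 against 215, 243 and 233 (−2.03). In each of them mOSM and mLIF did not overlap.

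Further falls concerned Adamtsl3 (−1.91), a matrix protein, Anxa1 (−1.79), a mediator that ends inflammation, and Pcsk6 (−1.75), a proprotein convertase. Anxa1 had 72, 68 and 65 with mOSM, 247, 240 and 230 with mLIF and 296, 285 and 409 with PBS, so that mLIF was already below PBS. Ccnd1, which encodes the G1 phase cyclin D1, had 90, 98 and 77 with mOSM and 278, 256 and 291 with mLIF (−1.63). It shares 23.4% of its exonic sequence with a gene of the opposite strand. The collagen Col15a1, of basement membranes, had 115, 114 and 103 against 317, 316 and 360 (−1.57).

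Calls against PBS in the same fit told which cytokine had moved a gene. With mOSM, 15.4% of the tested genes were raised and 15.8% lowered against PBS. With mLIF, 5.47% were raised and 4.44% lowered. Both of these comparisons use the same 3 PBS libraries. Of the 797 genes higher with mOSM than with mLIF, 508 (63.7%) were raised against PBS by mOSM and not past the threshold with mLIF. Their median log2 fold change against PBS was 0.625 with mOSM and 0.075 with mLIF. Another 190 genes (23.8%) were raised by both cytokines, with medians of 0.99 with mOSM and 0.463 with mLIF. The lower direction looked alike. Of 760 genes, 538 (70.8%) were lowered by mOSM alone at the threshold (medians −0.639 with mOSM and −0.1 with mLIF), and 134 (17.6%) were lowered by both (−0.803 and −0.398). The number lowered by both was 68 without PBS replicate 3, and 70, 66 and 56 without mLIF replicate 1, 2 and 3. For the genes raised by both, leaving out mLIF replicate 1, 2 or 3 left 123, 103 and 109. A gene without a call in mLIF is not shown to be unchanged there.

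Among the genes raised by mOSM and not called in mLIF, the smallest adjusted p at a mean of at least 50 belonged to Itgb8, Chst11, Sod3, Prg4 and Adamts9. Chst11, a sulfotransferase of chondroitin sulfate, had 298, 272 and 318 with mOSM, 74, 93 and 79 with mLIF and 70, 70 and 68 with PBS (log2 fold change 1.84). In the class raised by both, Il4ra, the receptor chain of IL-4 and IL-13, showed the graded pattern clearly. It had 170, 149 and 151 with PBS, 190, 216 and 232 with mLIF and 524, 508 and 532 with mOSM, without overlap between any of these. In the falling direction, B3galt2, a galactosyltransferase, was graded in the same way, with 224, 252 and 254, then 183, 151 and 139, then 64, 65 and 77. For Col6a1, a chain of microfibrillar collagen, PBS had 181, 185 and 228, mLIF 140, 142 and 153 and mOSM 54, 53 and 50.

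**Figure D2:**
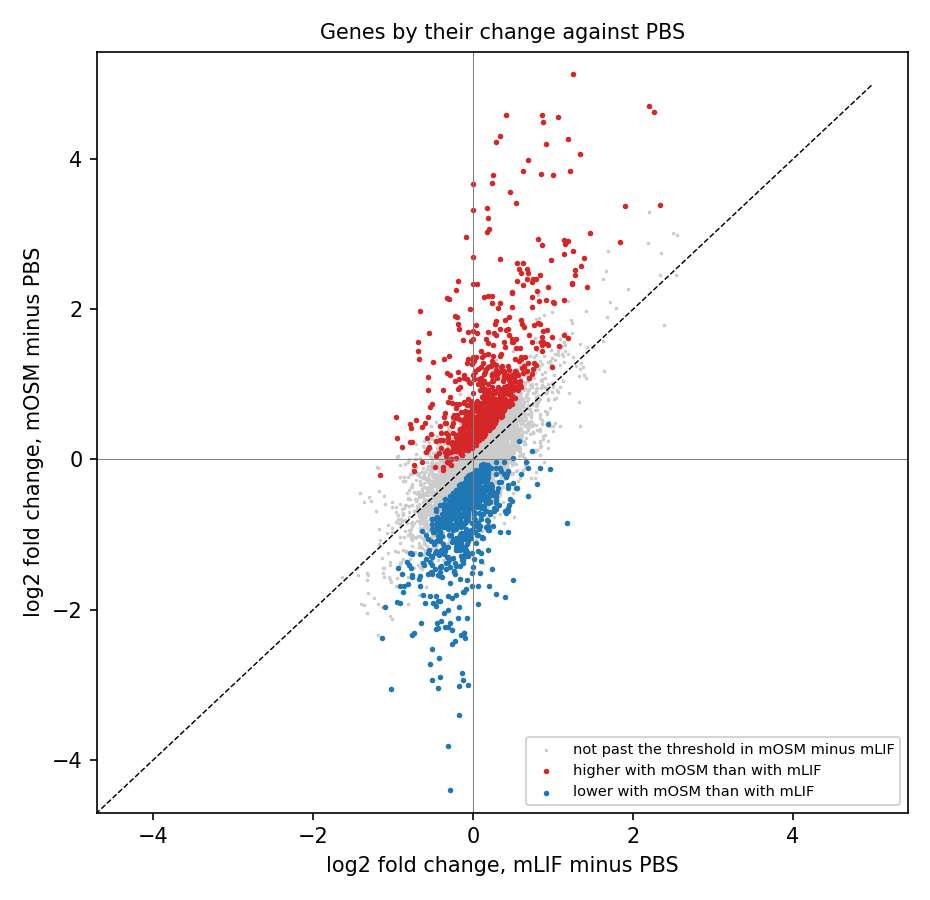
Log2 fold change against PBS with mLIF (horizontal axis) and with mOSM (vertical axis) for the 13184 genes tested, where red points are the 797 genes higher and blue points the 760 genes lower with mOSM than with mLIF, and the dashed line marks equal change. Both axes share the 3 PBS libraries. Red points lie mostly above 0 on the mOSM axis and blue points mostly below it, with mLIF nearer to 0.

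For a small number of DEG the call against PBS was that of mLIF. In the higher direction, 20 genes (2.51%) were lowered by mLIF and not called with mOSM. Adamts5, an aggrecan-cleaving protease, had 129, 152 and 122 with mLIF, against 175, 195 and 242 with PBS and 223, 202 and 225 with mOSM. Pecam1, an adhesion molecule of endothelial cells, had 217, 210 and 208 with mLIF, against 251, 255 and 265 with PBS and 258, 278 and 292 with mOSM. Fat3, Fn1 and Map4k4 belonged here too. Opposite calls were found in 3 genes, which mOSM raised and mLIF lowered against PBS. Nid2, a basement membrane protein, had 137, 153 and 196 with PBS, 135, 133 and 119 with mLIF and 267, 274 and 281 with mOSM. Apln, the ligand of the apelin receptor, had 51, 65 and 57, then 30, 37 and 32, then 78, 72 and 90. Elovl6, a fatty acid elongase, had 69, 67 and 81, then 50, 57 and 43, then 93, 83 and 100. All 3 conditions were apart in these genes, but for Nid2 the highest mLIF library lay just under the lowest PBS library (limma adjusted p = 0.0499 for mLIF against PBS).

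In the lower direction, 8 genes (1.05%) were raised by mLIF and not called with mOSM. Tmem144, a membrane protein, had 376, 372 and 415 with mLIF against 244, 270 and 255 with mOSM and 334, 303 and 253 with PBS. Rnf144b, a ubiquitin ligase, had 253, 279 and 290 with mLIF against 210, 201 and 176 with mOSM, with PBS at 207, 195 and 178. The noncoding gene Gm49540, which shares 64.6% of its exonic sequence with a gene of the opposite strand, had 74, 65 and 68 with mLIF against 46, 45 and 42 with mOSM. Both Tmem144 and Rnf144b were apart between the cytokines. Both classes led by mLIF were small and moved with the fit. Genes lowered by mLIF numbered 23 with the 3 opposite ones. Without PBS replicate 3 or mLIF replicate 1, 2 or 3 they numbered 11, 14, 13 and 9. Genes raised by mLIF and not called with mOSM numbered 2 without mLIF replicate 3, 4 without mLIF replicate 1, 15 without hlOSM replicate 3 and 16 without mOSM replicate 2. For 76 higher (9.54%) and 79 lower genes (10.4%), neither cytokine was past the threshold against PBS.

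Of 10 receptor chains and Janus kinases tested, 3 were higher with mOSM than with mLIF, against 6.05% of all genes, with a median log2 fold change of 0.13. Osmr, the receptor of mOSM (ENSMUSG00000022146, chromosome 15, 6813577 to 6874969), had 762, 735 and 560 with PBS, 1047, 980 and 1061 with mLIF and 1264, 1323 and 1391 with mOSM. The 3 conditions did not overlap, and mOSM exceeded mLIF by a log2 fold change of 0.36 (SE 0.10, limma adjusted p = 0.0159). Without mLIF replicate 2 the limma adjusted p was 0.0788, and without mOSM replicate 3 it was 0.0717. In a robust fit it was 0.0933. Il6st, the gp130 chain, had 1908, 1877 and 2001 with mLIF and 2079, 2202 and 2139 with mOSM, a log2 fold change of 0.15 (limma adjusted p = 0.0438). This call was lost in fits without mLIF replicate 1 (0.137), mLIF replicate 2 (0.196), mOSM replicate 2 (0.142), PBS replicate 1 (0.0624) or hlOSM replicate 2 (0.0643). Lifr, the receptor of mLIF, had 349, 334 and 350 with mLIF and 385, 405 and 325 with mOSM, which overlapped (log2 fold change 0.10, limma adjusted p = 0.511).

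Divided by exonic length, Il6st was the most abundant of these chains, with 173.8 normalized counts per kb of exon in mLIF and 192.8 in mOSM. Osmr followed with 85.0 in mLIF and 109.5 in mOSM, from 56.6 in PBS. Lifr had 32.0 and 34.5, from 34.1 in PBS. The level of Osmr per kb was thus above that of Lifr in each condition, while Il6ra and Il11ra1 reached at most 22.3. Jak2, the Janus kinase bound by many cytokine receptors, had 612, 605 and 598 with mOSM, against 426, 406 and 466 with mLIF and 408, 433 and 454 with PBS. The groups were apart, with a log2 fold change of 0.49 (limma adjusted p = 5.17e-06). Jak1, the main Janus kinase of gp130, had 905, 872 and 930 with mLIF and 920, 933 and 945 with mOSM (0.05, limma adjusted p = 0.603). Cntfr and Il31ra never exceeded a value of 3 and were below the limit for testing.

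Of the 5 ligands of the family that were tested, 4 were higher with mOSM than with mLIF (80.0%, against 6.05% of all genes). None of these 4 was called in mLIF against PBS. Il6 had 111, 76 and 108 with mOSM, 11, 16 and 11 with mLIF and 8, 15 and 11 with PBS (log2 fold change 2.86, SE 0.23, limma adjusted p = 1.08e-08). Il11, a ligand known for fibroblast activation, had 37, 24 and 28 with mOSM and 8, 8 and 7 with mLIF (1.80). Clcf1, which signals through the CNTF receptor, had 116, 119 and 104 against 52, 54 and 59 (1.03). The transcript of Lif itself had 119, 131 and 129 with mOSM and 61, 72 and 70 with mLIF (0.89, limma adjusted p = 1.29e-05), so that the ligand of the LIF receptor was higher after mOSM than after mLIF. Ctf1, cardiotrophin 1, had 12, 11 and 12 against 17, 14 and 18 without passing the threshold (−0.45, limma adjusted p = 0.225). Osm was listed at no more than 1 in any library.

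**Figure D3:**
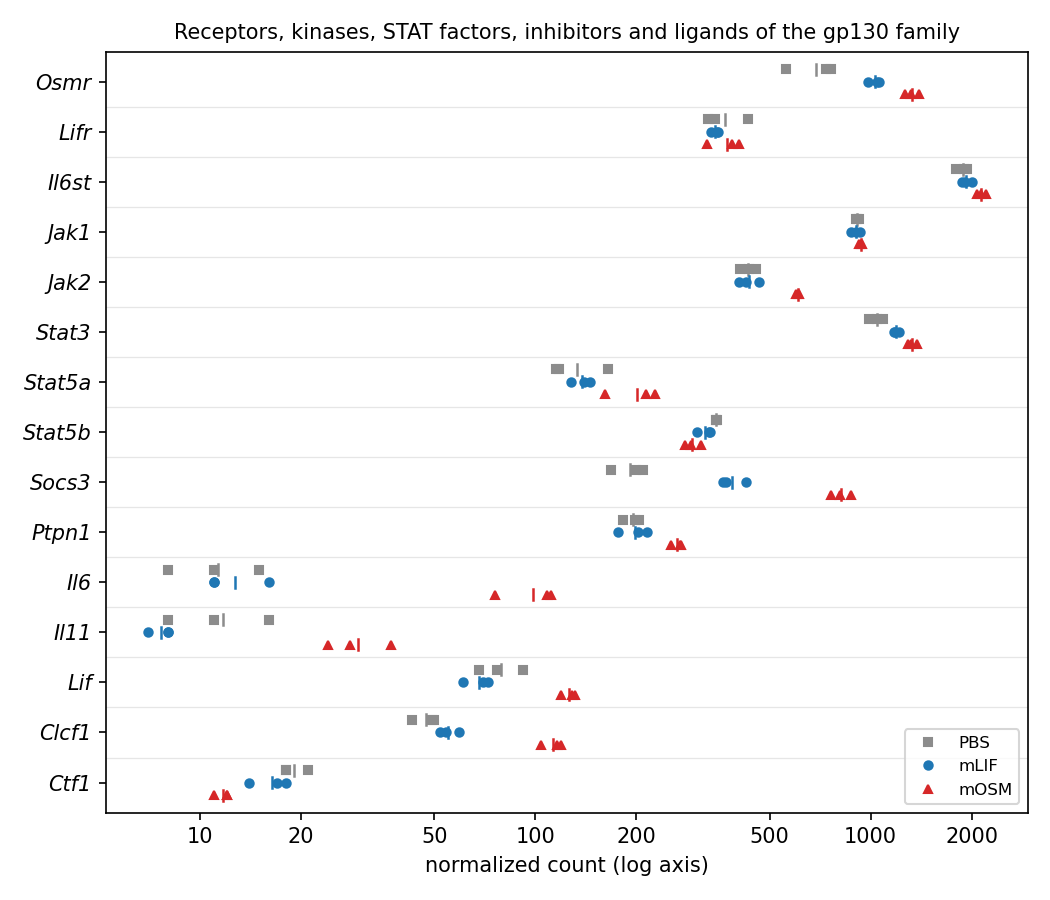
Normalized counts (log axis) in the single libraries of PBS, mLIF and mOSM for receptors, Janus kinases, STAT factors, inhibitors and ligands of the gp130 family, with a vertical line at each mean of 3 libraries. Socs3 and Osmr stand at 3 separate levels, Il6, Il11, Lif, Clcf1 and Jak2 lie apart with mOSM, and Lifr and Jak1 overlap between mLIF and mOSM or lie close together.

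Among the STAT factors, Stat5a was higher with mOSM (228, 214 and 161, against 128, 146 and 140 with mLIF, log2 fold change 0.53, limma adjusted p = 0.00505). Stat3 had 1183, 1173 and 1217 with mLIF and 1294, 1315 and 1370 with mOSM. These did not overlap, but the difference of 0.15 missed the threshold (limma adjusted p = 0.0712). Stat3 did pass after quantile rescaling (limma adjusted p = 0.00713) and without hlOSM replicate 3 (0.034). Stat2, Stat5b and Stat6 were without a call, at −0.27, −0.13 and 0.04. Of 15 inhibitors of the pathway, Socs3 and Ptpn1 were higher (13.3%). Socs3 (ENSMUSG00000053113, chromosome 11, 117966079 to 117970047) had 199, 209 and 168 with PBS, 369, 363 and 425 with mLIF and 763, 809 and 875 with mOSM. All 3 conditions were apart, and mOSM exceeded mLIF by 1.08 on the log2 scale (SE 0.08, limma adjusted p = 2.09e-09). Ptpn1, a phosphatase that acts on Janus kinases, had 254, 270 and 272 against 215, 176 and 203 (0.42). Of the other 13 inhibitors, all but Ptpn6 (0.60, limma adjusted p = 0.321, at normalized counts under 20) lay close to 0, between −0.09 and 0.12, including Cish and Socs2, known targets of STAT5.

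Promoter sequences were read to show what stands in front of genes that respond to this pathway. STAT factors bind palindromes of the form TTCNNNGAA, and AP-1, which lies downstream of ERK, binds TGANTCA. Both were searched on both strands in the 300 bases from 250 before to 50 after each start in RefSeq on GRCm38.p6. Of 12537 such windows of 9763 tested genes, 6.8% held TTCNNNGAA. The share was 8.71% of 792 windows of genes higher with mOSM, 22 of the 200 windows of those among them raised by both cytokines, and 5.56% of 755 windows of genes lower with mOSM. For TGANTCA the shares were 5.16%, 8.08%, 10.5% and 7.55% in the same order. These shares are descriptions of letters, not binding sites. The stretches shown were picked by hand as examples that hold a match. They belong to 3 genes raised by both cytokines and further by mOSM and to 3 ligands that mOSM raised, with the matched letters in capitals. The window of Sele also holds TGACTCA, beginning 73 bases before its start. The choice thus does not show that these groups of genes differ in their motifs.
Socs3, chr11:117969487-117969545, minus strand: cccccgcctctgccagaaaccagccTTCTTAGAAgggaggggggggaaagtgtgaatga
Steap4, chr5:7960331-7960389, plus strand: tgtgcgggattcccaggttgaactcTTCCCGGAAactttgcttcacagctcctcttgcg
Sele, chr1:164048069-164048127, plus strand: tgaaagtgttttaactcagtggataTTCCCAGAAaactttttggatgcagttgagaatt
Il6, chr5:30012864-30012896, plus strand: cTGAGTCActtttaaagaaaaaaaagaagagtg
Lif, chr11:4257318-4257371, plus strand: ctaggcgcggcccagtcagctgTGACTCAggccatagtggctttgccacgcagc
Il11, chr7:4778208-4778264, minus strand: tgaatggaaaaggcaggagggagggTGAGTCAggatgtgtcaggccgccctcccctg

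The match began 154 bases before the RefSeq start in Socs3, 116 in Steap4 and 140 in Sele, and 249 bases before it in Il6, 228 in Lif and 98 in Il11. Each is written 5′ to 3′ along the strand of its gene.

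Lists of genes for pathways and cell functions relevant to cardiomyocytes were described by the number of members past the threshold. Over 44 lists with 1306 different genes tested, 154 genes were higher and 144 lower with mOSM than with mLIF. In the 5 lists of small heat shock proteins, MHC class I presentation, respiratory chain subunits, cytosolic ribosomal proteins and proteasome subunits, 0 genes were called by limma. At an unadjusted p under 0.05 their counts of higher and lower genes were 1 and 2, 0 and 1, 2 and 2, 7 and 0, and 3 and 1 in the same order. Over all genes tested, 24.4% reached this unadjusted p in either direction. The lists with the highest shares of genes higher with mOSM were ligands of the IL-6 family, acute phase proteins and chemokines. Interferon-stimulated genes, collagens, metabolic regulators and muscle ubiquitin ligases had the highest shares in the lower direction. Shares of list members given below stand beside 6.05% higher and 5.76% lower of all genes tested. No test was made of the lists as wholes.

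**Figure D4:**
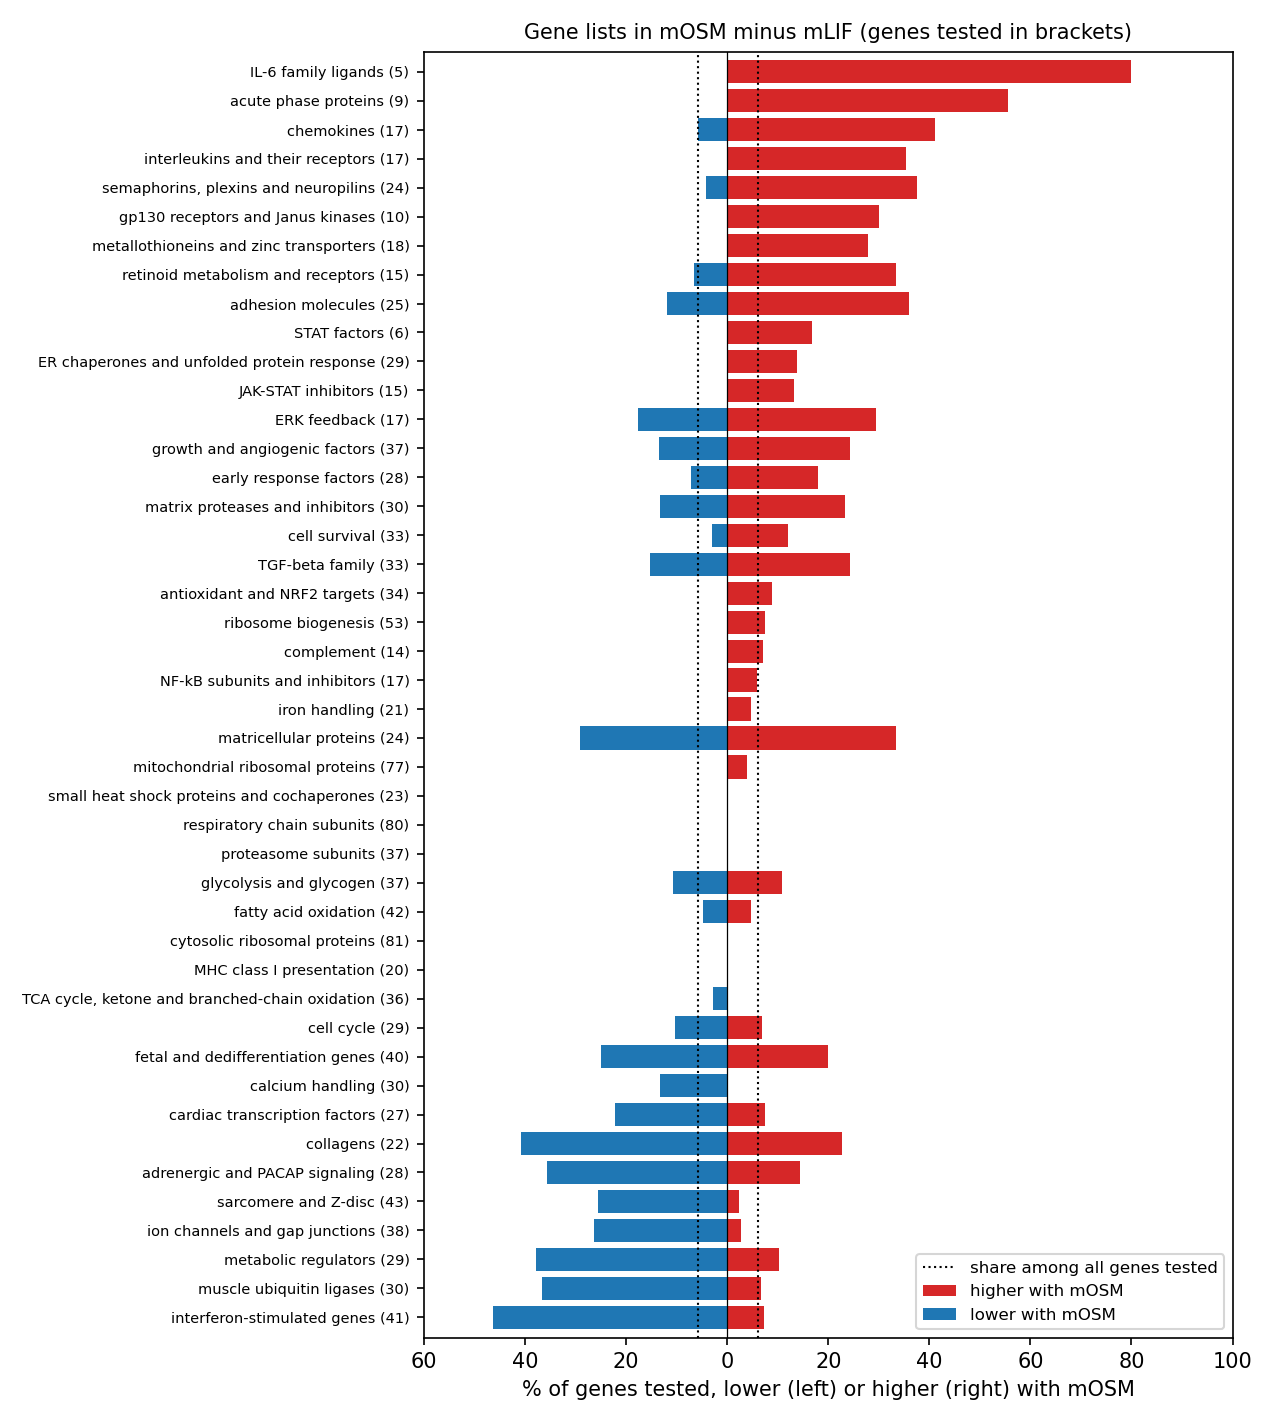
Share of the tested members of each gene list that were higher (red, to the right) or lower (blue, to the left) with mOSM than with mLIF, with the number of genes tested in brackets and dotted lines at the shares of all genes tested, 6.05% and 5.76%. Lists of inflammatory mediators reach far to the right, and the lists of interferon-stimulated genes, collagens, metabolic regulators and muscle ubiquitin ligases far to the left.

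Genes listed under the acute phase response, which gp130 cytokines induce in the liver, were higher with mOSM in 5 of 9 genes tested (55.6%). In 4 of these 5 the genes were also raised by mLIF. Steap4, a metalloreductase, had 66, 65 and 22 with PBS, 146, 167 and 215 with mLIF and 440, 395 and 640 with mOSM (log2 fold change of mOSM over mLIF 1.46, limma adjusted p = 0.000674). Serpina3n, a serine protease inhibitor, had 44, 35 and 16, then 140, 132 and 188, then 265, 328 and 362 (1.05). Lrg1, a leucine-rich glycoprotein, had 24, 15 and 19, then 39, 45 and 46, then 78, 99 and 83 (0.98). All 3 conditions were apart in each of these. In a robust fit, however, Steap4 and Serpina3n missed the threshold (limma adjusted p = 0.0664 and 0.106). Ptx3, the long pentraxin, differed from them, with 109, 100 and 51 with PBS, 87, 95 and 99 with mLIF and 188, 192 and 295 with mOSM (1.23), and was not called with mLIF.

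Of 17 chemokines tested, 7 were higher with mOSM (41.2%) and 1 was lower (5.88%). Ccl11, or eotaxin, had 52, 58 and 59 with mOSM and 5, 7 and 9 with mLIF (log2 fold change 2.87, limma adjusted p = 1.38e-08). Ccl8, a ligand for monocytes, had 38, 41 and 25 against 5, 3 and 2 (3.07). Both were under 10 in every mLIF library and far above it with mOSM, so that neither passed the filter through mLIF. Ccl8, which mLIF raised against PBS, could enter only with the help of libraries with mOSM or hlOSM. Its part in the 7 higher genes thus depends on that filter. The neutrophil chemokine Cxcl5 had 160, 176 and 190 against 85, 112 and 84 (0.91), and Cxcl1 had 131, 133 and 153 against 94, 116 and 90 (0.48). For Cxcl1 neither cytokine passed against PBS, where it had 133, 114 and 115. Cx3cl1, the membrane-bound fractalkine, was the gene in the other direction, with 33, 24 and 34 against 47, 60 and 55 (−0.82). Of 17 interleukins and interleukin receptors, 6 were higher (35.3%). Besides Il33 and Il4ra these were Il1r1, the IL-1 receptor (448, 479 and 535 with mOSM, 225, 237 and 246 with mLIF, 1.04), Il17ra (0.76), Il13ra1 and Il13ra2, a decoy receptor listed at 1 in every PBS and mLIF library and at 17, 9 and 11 with mOSM. Il13ra1 differed by 0.19, and its limma adjusted p was 0.0983 and 0.0992 without mLIF replicate 1 and 2, and 0.06 and 0.0546 without mOSM replicate 1 and 2.

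Adhesion molecules were higher in 9 of 25 genes (36.0%) and lower in 3 (12.0%). Sele, the endothelial selectin for leukocytes, had 36, 34 and 25 with PBS, 47, 60 and 54 with mLIF and 162, 154 and 194 with mOSM (log2 fold change 1.65, limma adjusted p = 1.75e-08). Selp, the selectin of platelets and endothelium, had 37, 35 and 34, then 93, 90 and 77, then 182, 196 and 252 (1.26), and shares 14.1% of its exonic sequence with a gene of the opposite strand. Cd44, a hyaluronan receptor, had 459, 442 and 520 with mLIF and 636, 679 and 697 with mOSM (0.50). The genes Sele, Selp and Pecam1 are characteristic of endothelial cells, whose defining markers moved in the same direction. Cdh5 had 234, 219 and 225 with mLIF and 288, 324 and 316 with mOSM (0.45), and Kdr had 469, 461 and 485 against 374, 376 and 398 (0.30). The part of endothelial cells in these differences was not tested.

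Retinoid metabolism held the gene with the largest log2 fold change among those named. Of 15 genes tested, 5 were higher with mOSM than with mLIF (33.3%) and 1 was lower (6.67%), with a median log2 fold change of 0.24. Cyp26b1, which degrades retinoic acid (ENSMUSG00000063415, chromosome 6, 84571414 to 84593908), had 81, 82 and 121 with mOSM, 3, 4 and 6 with mLIF and 5, 4 and 1 with PBS, a log2 fold change of 4.18 (SE 0.32, limma adjusted p = 5.10e-09). Aldh1a3, which makes retinoic acid, had 71, 78 and 66 against 6, 6 and 5 (3.45). Rdh10, which makes its precursor retinal, had 133, 163 and 87 against 23, 31 and 41 (1.97). In each of these 3 genes the PBS libraries lay in or below the range of mLIF. Cyp26b1 and Aldh1a3 were under 10 in every PBS and mLIF library and passed the filter only through libraries with mOSM or hlOSM. Their part in the 5 higher genes thus depends on that filter. Aldh1a2, a further enzyme of this step, had 368, 359 and 515 with mOSM and 204, 223 and 185 with mLIF (1.00). Aldh1a1, given above, fell, so that the Aldh1a genes went in opposite directions. Rarb, a retinoic acid receptor and known target gene, was raised by both and had 192, 180 and 198 with mLIF and 233, 225 and 236 with mOSM (0.28), a call that was lost without mLIF replicate 2 (limma adjusted p = 0.0709).

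Interferon-stimulated genes formed the list with the largest share of genes lower with mOSM. Of 41 genes tested, 19 were lower (46.3%, against 5.76% of all genes) and 3 were higher, with a median log2 fold change of −0.41. Without overlap of libraries, 23 of the 41 were lower, against 14.1% of all genes. Against PBS, 17 of the 19 were lowered by mOSM and not called with mLIF, and 1 was lowered by both. The median log2 fold change of the 41 genes against PBS was −0.6 with mOSM and −0.2 with mLIF, so that mLIF too lay below PBS. Ifit1, which binds foreign RNA, had 54, 79 and 115 with PBS, 61, 64 and 49 with mLIF and 19, 16 and 15 with mOSM (log2 fold change −1.74, SE 0.21, limma adjusted p = 2.98e-06). Usp18, the protease that removes ISG15, had 26, 22 and 42, then 18, 23 and 31, then 6, 6 and 5 (−1.88). Oasl2 had 59, 70 and 67 with mLIF and 29, 27 and 37 with mOSM (−1.06). Rtp4, which shares 13.9% of its exonic sequence with another gene of its strand, had 16, 14 and 16 against 29, 38 and 33 (−1.07).

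The mOSM libraries of these 4 genes lay below all others of PBS and mLIF. Irf7, a transcription factor of the interferon response, was lower by 0.86 on the log2 scale (19, 15 and 28 against 43, 41 and 29). Its limma adjusted p was 0.0818 and 0.071 without mLIF replicate 1 and 2, and 0.0868 without mOSM replicate 2. Dhx58, Ifit3 and Rsad2 were among the remaining genes, all at normalized counts under 50 with PBS, mLIF and mOSM. Gbp2, a guanylate-binding protein, went in the other direction, with 59, 52 and 74 against 36, 41 and 29 (0.78). Among genes for MHC class I presentation, which interferons also raise, 0 of 20 were called by limma. At an unadjusted p under 0.05, 1 was lower, against 24.4% of all genes in either direction. Without overlap of libraries, 4 of the 20 were lower, against 14.1% of all genes. Interferon response elements contain the letters GAAA 2 times with 2 bases between them, a pattern that was searched in the same windows on both strands. They were found in 2.96% of all windows, in 4.37% of windows of genes lower with mOSM and in 46.7% of the 15 windows of 13 of these interferon-stimulated genes, a number of windows that leaves this share imprecise. The letters TGANTCA were found in the same share of these 15 windows, 46.7%, against 5.16% of all windows. In the promoter of Ifit1 2 matches stand close together on the other strand, the first of them beginning 104 bases before the start.
Ifit1, chr19:34640760-34640838, plus strand: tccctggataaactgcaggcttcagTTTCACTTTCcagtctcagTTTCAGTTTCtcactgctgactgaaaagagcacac

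**Figure D5:**
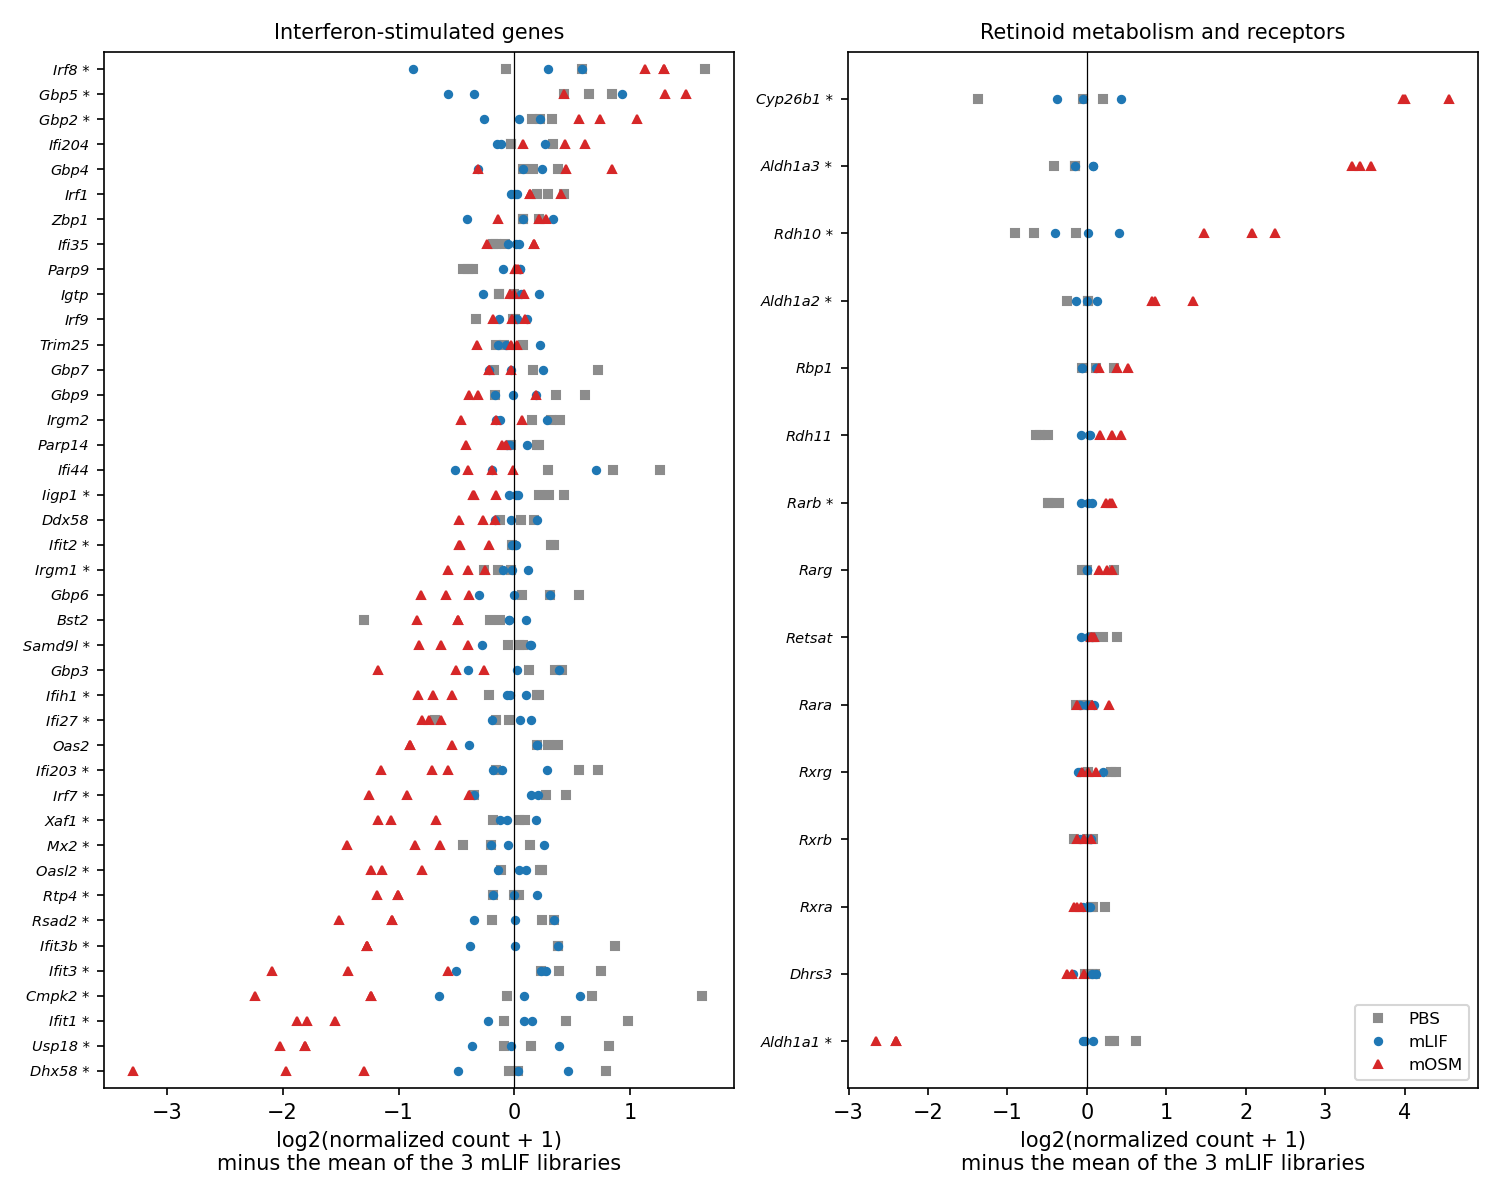
Log2(normalized count + 1) in the single libraries of PBS, mLIF and mOSM, relative to the mean of the 3 mLIF libraries, for 41 interferon-stimulated genes (left) and 15 genes of retinoid metabolism (right), where an asterisk marks genes past the threshold in mOSM against mLIF. Most interferon-stimulated genes lie to the left with mOSM, and Cyp26b1, Aldh1a3 and Rdh10 lie far to the right. For the interferon-stimulated genes the median log2 fold change of mLIF over PBS was −0.2.

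Genes of the extracellular matrix moved in both directions. Of 30 matrix proteases and their inhibitors, 7 were higher with mOSM (23.3%) and 4 lower (13.3%). Besides Serpinb2 and Adamts4, Mmp13, a collagenase, was higher, with 37, 61 and 37 against 12, 9 and 7 (log2 fold change 2.14). The inhibitors of matrix metalloproteinases were split. Timp1 had 132, 136 and 150 with mLIF and 225, 256 and 268 with mOSM (0.84), and Timp2 had 84, 83 and 80 against 138, 150 and 148 (−0.81, limma adjusted p = 6.64e-07). Among 22 collagen chains, 9 were lower (40.9%) and 5 were higher (22.7%). Col3a1, a fibrillar collagen, had 356, 428 and 286 with mLIF and 785, 715 and 1050 with mOSM (1.25), whereas Col1a2, a chain of collagen I, had 245, 274 and 262 against 393, 406 and 393 (−0.61). Col1a1, the other chain of collagen I, had 254, 253 and 248 against 252, 236 and 243 (0.05, limma adjusted p = 0.788). Fibrillar collagens thus did not move together, and the lower genes included Col15a1 and 3 chains of collagen VI (Col6a1, Col6a2 and Col6a3).

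Matricellular proteins, which sit in the matrix and signal to cells, were higher in 8 (33.3%) and lower in 7 (29.2%) of 24 genes. Spp1, or osteopontin, had 324, 394 and 424 with mOSM and 134, 150 and 111 with mLIF (log2 fold change 1.53), and shares 18.8% of its exonic sequence with another gene of its strand. Thrombospondin 1, Thbs1, fell with Thbs2 and had 633, 683 and 581 against 1177, 1146 and 1368 (−0.96). Ccn2, a target of TGF-beta and mechanical load, had 401, 465 and 481 against 719, 656 and 620 (−0.57). None of these libraries overlapped between the cytokines. Dcn, a small proteoglycan and fibroblast marker, had 427, 466 and 528 against 251, 254 and 210 (0.99), and Pdgfra, the receptor that defines fibroblasts, had 411, 433 and 441 against 597, 576 and 631 (−0.49), so that fibroblast markers moved both ways beside the matrix genes. The part of fibroblasts in these differences was not tested.

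Sarcomere and Z-disc genes were lower with mOSM in 11 of 43 genes (25.6%) and higher in 1. The median log2 fold change of the list was −0.12, so that these differences were small. Ldb3, a Z-disc scaffold, had 943, 976 and 946 with mLIF and 698, 713 and 665 with mOSM, from 1190, 1089 and 1279 with PBS (−0.46, limma adjusted p = 6.53e-06). Ttn, the molecular spring titin, had 32687, 32934 and 33150 with PBS, 29187, 27991 and 29003 with mLIF and 23070, 21576 and 24076 with mOSM. The 3 conditions were apart (−0.33, limma adjusted p = 0.000185). Ttn is the gene with the highest value, and a quantile rescaling, which gives the top gene of every library the same value, set this difference to 0. Neb, or nebulin, had 136, 105 and 138 against 196, 206 and 223 (−0.73). Csrp3, a mechanosensor of the Z-disc, was the gene in the other direction, with 449, 458 and 515 against 404, 381 and 413 (0.24), and it missed the threshold without mLIF replicate 2 (limma adjusted p = 0.0684).

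Other contractile genes did not follow. Myh6, the adult myosin heavy chain, had 3218, 3132 and 2849 with mLIF and 2721, 2750 and 3436 with mOSM (−0.05, limma adjusted p = 0.735). Myl2, Myl3, Tnni3 and Actc1 lay between −0.07 and 0.05, and Ryr2 and Actn2 at −0.14 and −0.12, all without a call. Tnnt2 passed at −0.21 (limma adjusted p = 0.0421), with 1208, 1343 and 1496 against 1652, 1562 and 1443, and its libraries overlapped. The limma adjusted p was over the threshold without mLIF replicate 1 or 2 (0.213 and 0.126), mOSM replicate 1 or 2 (0.238 and 0.083) or hlOSM replicate 2 (0.0523). Of 30 genes of calcium handling, 4 were lower (13.3%, against 5.76% of all genes). Jph2, which ties the sarcoplasmic reticulum to the plasma membrane, had 375, 375 and 377 with mOSM and 487, 493 and 457 with mLIF (−0.35), and the sodium-calcium exchanger Slc8a1 had 1251, 1190 and 1288 against 1472, 1481 and 1423 (−0.23). Pln, the inhibitor of the calcium pump, which shares 64.7% of its exonic sequence with a gene of the opposite strand, was lower by 0.30 on the log2 scale. Its limma adjusted p was 0.0689 without mLIF replicate 1 and 0.0534 without mOSM replicate 1.

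Ion channels and gap junctions were lower in 10 of 38 genes (26.3%) and higher in 1, with a median log2 fold change of −0.22. Kcnd2, a subunit of the transient outward potassium current, had 143, 144 and 149 with mOSM and 222, 220 and 208 with mLIF, beside 220, 220 and 237 with PBS (−0.57, limma adjusted p = 7.27e-06). The L-type calcium channel genes Cacna1c and Cacnb2 fell by 0.37 and 0.49 on the log2 scale, and Kcnj5, a channel opened by acetylcholine, by 0.44. These last 3 genes were lowered by mLIF too. Cacna1c, for example, had 1236, 1286 and 1355 with PBS, 1145, 1116 and 1089 with mLIF and 895, 808 and 890 with mOSM. Hcn4, the pacemaker channel, was the gene in the other direction and rose with both cytokines, with 40, 46 and 62, then 102, 104 and 103, then 151, 144 and 127 (0.44, limma adjusted p = 0.0181). The call was lost without mLIF replicate 1, 2 or 3 (0.0598, 0.0518 and 0.0521) and without mOSM replicate 1 or 2 (0.0831 and 0.0555).

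Signaling through adrenergic receptors and PACAP differed in 14 of 28 genes, 10 lower (35.7%) and 4 higher. With the replicate number as a block, 5 were lower and 3 higher. Adcyap1r1 led the falls. Adcy7, an adenylyl cyclase, had 44, 38 and 43 with mOSM and 66, 87 and 107 with mLIF (−1.01). Pde4b, which degrades cAMP, rose in steps with 366, 417 and 388 in PBS, 569, 543 and 565 in mLIF and 825, 779 and 814 in mOSM (0.53, limma adjusted p = 1.22e-06), whereas Pde7a, another phosphodiesterase, had 201, 198 and 201 with mOSM against 269, 262 and 251 with mLIF (−0.38). Phosphodiesterase genes thus went both ways.

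Of 40 fetal and dedifferentiation genes, 8 were higher with mOSM and 10 were lower. Runx1, a transcription factor and marker of dedifferentiated cardiomyocytes, had 178, 148 and 89 with PBS, 181, 185 and 229 with mLIF and 299, 323 and 372 with mOSM (log2 fold change 0.74, limma adjusted p = 0.00417). In a robust fit Runx1 missed the threshold (limma adjusted p = 0.0997). Nes, the intermediate filament nestin, had 732, 622 and 1063 against 368, 384 and 379 (1.06), and Kit, the stem cell factor receptor, had 62, 60 and 64 against 30, 33 and 28 (1.01). The smooth muscle genes Acta2 and Tagln, often counted among fetal genes of the heart, moved the other way. Acta2 had 76, 92 and 79 against 199, 154 and 195 (−1.14), and Tagln had 45, 54 and 49 against 97, 89 and 112 (−0.99). Markers of smooth muscle cells and pericytes fell beside them, with Myh11 at 8, 6 and 4 against 18, 20 and 18 (−1.53) and Pdgfrb at 142, 160 and 118 against 200, 202 and 225 (−0.58). The part of these cells was not tested. The natriuretic peptide genes Nppa and Nppb and the fetal myosin Myh7 were not called, at −0.09, 0.04 and −0.18.

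Cardiac transcription factors were lower in 6 of 27 genes (22.2%, against 5.76% of all genes) and higher in 2 (7.41%, near the 6.05% of all genes). Mef2c, an activator of muscle genes, had 696, 624 and 701 with PBS, 559, 553 and 539 with mLIF and 400, 407 and 420 with mOSM (log2 fold change −0.43, limma adjusted p = 2.31e-05). Tbx20 had 538, 536 and 458 against 657, 679 and 706 (−0.42), with PBS in the range of 639 to 699, and Zfpm2, a cofactor of GATA4, was lower by 0.29 on the log2 scale. In the cell cycle list, 3 of 29 genes were lower (10.3%, against 5.76% of all genes), with Ccnd1 ahead of all others. Another 2 were higher (6.9%, against 6.05%), both of them Gadd45 genes that respond to stress. Gadd45g had 122, 133 and 133 with PBS, 172, 163 and 166 with mLIF and 245, 252 and 230 with mOSM (0.53).

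Regulators of energy metabolism were lower in 11 of 29 genes (37.9%) and higher in 3. Ppargc1a, the PGC-1 alpha coactivator of mitochondrial genes, had 257, 244 and 261 with mOSM, against 363, 374 and 382 with mLIF and 419, 422 and 413 with PBS (log2 fold change −0.55, limma adjusted p = 7.09e-07). Esrrg, its partner among nuclear receptors, had 93, 88 and 80 against 157, 133 and 133 (−0.69), and Nr1d2, a circadian repressor, had 684, 700 and 720 against 873, 910 and 852 (−0.32). Nrip1, a corepressor of these receptors, was higher, with 849, 787 and 732 against 547, 596 and 649 (0.40). Few of the enzymes themselves were called. Of 42 genes of fatty acid oxidation 2 were higher and 2 lower, of 36 genes of the TCA cycle, ketone and branched-chain oxidation 1 was lower (Pcca), and the 80 respiratory chain subunits were without a call, as given above. These shares of called genes are at or below those of all genes. A log2 fold change above 0 was seen in 10 of the 42, 3 of the 36 and 30 of the 80 genes, against 6369 of all 13184. The medians were −0.06, −0.06 and −0.02, against −0.01 over all genes. Without overlap of libraries, 12 of the 42 genes of fatty acid oxidation were lower and 4 higher, against 14.1% and 12.9% of all genes.

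In glycolysis and glycogen metabolism, 4 of 37 genes were higher and 4 lower (10.8% each, against 6.05% and 5.76% of all genes). Slc16a3, the lactate exporter MCT4, was scarce with PBS (6, 6 and 8) and mLIF (4, 7 and 6) and reached 45, 34 and 29 with mOSM (log2 fold change 2.48, limma adjusted p = 3.26e-07). The bifunctional enzymes that set the rate of phosphofructokinase moved in opposite directions. Pfkfb3, the inducible isoform, had 233, 224 and 194 with mOSM and 127, 142 and 142 with mLIF (0.66), and Pfkfb2, the heart isoform, had 73, 70 and 84 against 144, 123 and 118 (−0.75). It shares 17.4% of its exonic sequence with another gene of its strand. Slc2a4, the insulin-dependent glucose transporter, fell by 0.44 on the log2 scale, with 152, 147 and 138 against 224, 192 and 181, and its limma adjusted p was 0.0558 without mLIF replicate 1.

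The list of muscle ubiquitin ligases was lower with mOSM in 11 of 30 genes (36.7%) and higher in 2. The 11 include Foxo3, which is a transcription factor and not a ligase. Asb15 had 316, 244 and 288 with PBS, 166, 183 and 149 with mLIF and 96, 92 and 96 with mOSM (log2 fold change −0.80, limma adjusted p = 2.73e-05). Klhl33 had 184, 207 and 225, then 138, 144 and 135, then 89, 80 and 90 (−0.68). Both Asb15 and Klhl33 thus stood at 3 levels, and 4 of the 11 genes were lowered by both cytokines. Kbtbd11 was among the rises given above, and Trim63, the atrophy ligase MuRF1, had 582, 589 and 683 with mOSM against 527, 515 and 515 with mLIF (0.25), with 588, 561 and 599 in PBS. Fbxo32, the other atrophy ligase, was among the lower genes (−0.23), but its libraries overlapped and its limma adjusted p was 0.129 and 0.0545 without mLIF replicate 1 and 2, and 0.13 and 0.0716 without mOSM replicate 1 and 2.

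Zinc handling genes were higher in 5 of 18 (27.8%). The zinc importer Slc39a14, a known target of IL-6, had 484, 488 and 496 with PBS, 624, 581 and 657 with mLIF and 931, 939 and 863 with mOSM (log2 fold change 0.55, limma adjusted p = 5.30e-07). Slc39a10 had 387, 383 and 414 with mLIF and 490, 495 and 503 with mOSM (0.33). Mt1 and Mt2, the metallothioneins, were raised by both cytokines and differed less between them, at 0.52 and 0.44. The call of Mt1 was lost without mLIF replicate 1 or 2 (limma adjusted p = 0.0784 and 0.158) and without mOSM replicate 2 or 3 (0.171 and 0.084). That of Mt2, which shares 73.5% of its exonic sequence with a gene of the opposite strand, was lost in the same fits (limma adjusted p 0.0577 and 0.141 without mLIF replicate 1 and 2, and 0.0828 and 0.124 without mOSM replicate 2 and 3). Among 21 genes of iron handling, 1 was higher (4.76%), Steap4, which the acute phase list also holds. Antioxidant genes were higher in 3 of 34 (8.82%), led by Sod3. Both shares are near the 6.05% of all genes. Srxn1, a target of NRF2, had 755, 778 and 833 against 649, 626 and 665 (0.29).

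Growth and angiogenic factors were higher in 9 (24.3%) and lower in 5 (13.5%) of 37 genes. Igfbp3, a binding protein of insulin-like growth factors, had 72, 52 and 45 with PBS, 78, 90 and 100 with mLIF and 278, 322 and 342 with mOSM (log2 fold change 1.80, limma adjusted p = 1.08e-09). Igfbp4 was higher (97, 107 and 135 against 58, 63 and 53, 0.94) and Igfbp5 lower (554, 521 and 618 against 785, 844 and 859, −0.56), so that the binding proteins of this family did not move together. Apln, described above, belongs to this list as well. In the TGF-beta family, 8 of 33 genes were higher (24.2%) and 5 lower (15.2%). Inhbb, an activin subunit, had 219, 219 and 274 with mOSM, 63, 77 and 54 with mLIF and 45, 38 and 37 with PBS (1.87). Inhba, the other activin subunit, had 725, 757 and 805 against 483, 504 and 496 (0.62), without a call of mLIF. Bmp1, the procollagen protease, had 242, 221 and 201 against 126, 124 and 141 (0.76), and Ltbp1, which anchors latent TGF-beta, had 252, 244 and 235 against 324, 351 and 330 (−0.46).

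Guidance molecules of the semaphorin system were higher with mOSM in 9 of 24 genes (37.5%) and lower in 1. All 9 were raised by mOSM and not called with mLIF. Sema6b had 65, 59 and 65 with mOSM and 23, 23 and 25 with mLIF (log2 fold change 1.38). Sema3e had 33, 31 and 44 against 13, 9 and 9 (1.71), Sema4c 58, 66 and 78 against 23, 25 and 34 (1.28), and Sema6d, the most abundant of them, 502, 494 and 477 against 330, 333 and 327 (0.57, limma adjusted p = 1.80e-06). No mOSM library of these overlapped with mLIF.

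Feedback inhibitors of ERK signaling moved both ways, with 5 of 17 higher (29.4%) and 3 lower (17.6%). Spred3 had 12, 15 and 11 with PBS, 35, 28 and 25 with mLIF and 102, 91 and 102 with mOSM (log2 fold change 1.72, limma adjusted p = 3.56e-07), and Spred1 had 614, 628 and 604 against 452, 465 and 458 (0.42). The phosphatase genes Dusp5 and Dusp4 were split. Dusp5, which shares 22.1% of its exonic sequence with a gene of the opposite strand, had 312, 328 and 318 against 221, 215 and 234 (0.51), and Dusp4 had 49, 51 and 62 against 100, 99 and 92 (−0.84). Of 28 early response factors, 5 were higher (17.9%) and 2 lower (7.14%). Bcl3, a STAT3 target and atypical inhibitor of NF-kB, had 83, 89 and 72, then 113, 107 and 124, then 166, 163 and 150 (0.48), and Junb had 371, 417 and 404 with mOSM against 335, 330 and 327 with mLIF (0.26). Egr3 had 30, 37 and 41 against 65, 57 and 63 (−0.77). Myc was raised by both cytokines against PBS and did not differ between them at the threshold, with 328, 406 and 290 against 307, 316 and 357 (0.05, limma adjusted p = 0.806). Of 17 subunits and inhibitors of NF-kB, 1 was higher (5.88%, against 6.05% of all genes). This was Ikbke, at normalized counts under 20 (0.83). Its limma adjusted p was 0.0781 and 0.137 without mLIF replicate 2 and 3, and 0.123 and 0.133 without mOSM replicate 2 and 3.

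Survival genes were higher in 4 of 33 (12.1%, against 6.05% of all genes) and lower in 1 (3.03%, against 5.76%). Pim3, a kinase and STAT3 target, had 127, 118 and 108 with PBS, 167, 153 and 178 with mLIF and 220, 260 and 227 with mOSM (log2 fold change 0.50, limma adjusted p = 0.000531). Cflar, an inhibitor of caspase 8, had 779, 730 and 760 against 610, 603 and 640 (0.29), and Casp4, an inflammatory caspase, had 52, 54 and 76 against 42, 32 and 28 (0.82). Of 29 ER chaperones and genes of the unfolded protein response, 4 were higher (13.8%, against 6.05% of all genes). Among them were Xbp1 (283, 319 and 311 against 240, 231 and 247, 0.34) and Ddit4, an inhibitor of mTOR (64, 66 and 68 against 36, 41 and 44, 0.70). Ribosome biogenesis factors were called in 4 of 53 genes, all higher (7.55%, against 6.05% of all genes). Of the 53, 51 had a log2 fold change above 0, with a median of 0.12 against −0.01 over all genes. All 4 calls (Ppan, Nolc1, Ebna1bp2 and Pprc1) were lost without mLIF replicate 1, with limma adjusted p of 0.186, 0.124, 0.154 and 0.0826. Ppan, Nolc1 and Ebna1bp2 were also lost without mLIF replicate 2 (0.11, 0.0718 and 0.157) or mOSM replicate 3 (0.0565, 0.14 and 0.189), Ppan and Ebna1bp2 without mOSM replicate 1 (0.105 and 0.0711), and Ebna1bp2 without mLIF replicate 3 (0.0501), PBS replicate 1 (0.0552) or hlOSM replicate 1 (0.0525). With the block 2 of the 4 were called. Of 77 mitochondrial ribosomal proteins 3 were higher (3.9%, below the 6.05% of all genes). These were Mrps10, Mrpl52 and Mrpl33, and each lost its call with the block (limma adjusted p = 0.081, 0.0709 and 0.0753) and without mLIF replicate 1 (0.0763, 0.0554 and 0.0592), mLIF replicate 2 (0.134, 0.0787 and 0.126) or mOSM replicate 1 (0.0901, 0.0615 and 0.0719). Without mLIF replicate 3, Mrpl52 and Mrpl33 were lost (0.0914 and 0.0752), without mOSM replicate 2 Mrpl52 (0.113), and without mOSM replicate 3 Mrps10 and Mrpl33 (0.0645 and 0.119).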

How the data were processed

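RNA of cultured adult murine cardiomyocytes was sequenced as single-end reads, and per the labels and the study's methods the authors trimmed reads, aligned them to mm10 with STAR 2.7.7a and counted them per gene with featureCounts 1.6.5 (Subread). The deposited values are scores in the sense that the authors normalized the counts and rounded them to whole numbers. The normalization method is not given in the sources used here, and depth is unknown, so that no counting interval is given. From these values, log2(value + 1) was modelled by the limma functions lmFit and eBayes (version 3.58.1 under R 4.3.3, with a trend) over 12 libraries in 4 conditions, without a minimum fold, after the filter of a value of at least 10 in at least 3 libraries. Tables and plots were made with Python 3.11.15, pandas 2.3.3, numpy 2.4.6 and matplotlib 3.10.9. The fit was also run on simulated data with independent libraries. These lack the dependence between conditions described above, so that this run cannot show whether the p-values are too small. Promoter windows came from RefSeq on GRCm38.p6, and exonic lengths and overlaps from GENCODE vM21. Named genes were the members of the 4 gp130 lists, the 10 largest rises and 10 largest falls at a mean of at least 50, the 5 of smallest adjusted p per class against PBS at that mean, the first 4 genes of each list by adjusted p and the cardiomyocyte markers, 235 in all. A further 37 genes were named after their values were seen. The members, lists and tests were chosen with earlier results of these data known. Alternatives covered the pseudocount, the filter, rescaling, the threshold, a minimum fold, a robust fit, a block for the replicate number, a fit restricted to the compared libraries and the leaving out of each library. Results for some genes are not reported here.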

Additional observations from a re-analysis of the deposited data

How the results depend on the processing

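The number of genes higher and lower with mOSM than with mLIF, 797 and 760, stayed within 1.5 times under other pseudocounts, filters, rescalings, a robust fit and the libraries compared alone. It was 351 and 335 at a minimum of 1.5-fold, 189 and 138 at a minimum of 2-fold, and 499 and 430 at an adjusted p under 0.01. Leaving out 1 library gave 555 to 886 higher and 531 to 844 lower genes. Genes raised by mOSM only (508) numbered 241 and 139 at these minimum folds and 385 to 603 without 1 library, and genes raised by both (190) numbered 74 and 38, 86 at an adjusted p under 0.01 and 103 to 227 without 1 library. Genes lowered by mOSM only (538) numbered 255 and 120, 346 at an adjusted p under 0.01 and 417 to 597 without 1 library, and those lowered by both (134) numbered 38 and 9, 45, and 56 to 173. Genes higher with mOSM and lowered by mLIF (23) numbered 11 and 3, 8, and 9 to 27. Genes lower with mOSM and raised by mLIF (8) numbered 4 and 1, 2, and 2 to 16, and they were 15 without a filter, 16 after quantile rescaling and 17 with the libraries compared alone. Stricter limits lower such counts by construction, and the cause of the other shifts was not tested. Quantile rescaling gives the top gene Ttn the same value in every library and thus a difference of 0.0.

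With the replicate number as a replicate block, 619 genes were higher and 542 lower. The class lowered by both held 86 genes, genes lowered by mLIF numbered 9 and genes raised by mLIF 3, and 12 of the 272 named genes lost their call. Whether the numbers pair the samples cannot be told from these values. Deviations of same-numbered libraries correlated between −0.52 and 0.02 over 18 pairs. However, the mean deviation of a replicate number over the 4 conditions was nearly the same for all genes, which forces such correlations below 0 on average. A small shift shared by the genes remained, with trimmed-mean scaling factors of 1.0184 to 1.0259 in replicate 3 and 0.9819 to 0.9925 in replicates 1 and 2. Named calls were also lost by Il6st, Tnnt2, Mt1 and Ikbke without a filter (limma adjusted p = 0.0751, 0.0686, 0.0527 and 0.0732), by Il6st and Ikbke with the libraries compared alone (0.0706 and 0.0504), by Mt1 after trimmed-mean rescaling (0.0515) or in a robust fit (0.0995), and by Mt1, Mt2 and Ebna1bp2 after quantile rescaling (0.0688, 0.0619 and 0.0675). Sequencing depth is unknown, so that for genes near a value of 10 a missing call may come from low counts.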
